A study of Mus musculus with 6 samples.

Results

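The mouse Fc gamma receptor family was examined in macrophages grown from fetal liver: the activating receptors Fcgr1, Fcgr3 and Fcgr4, the inhibitory receptor Fcgr2b, the shared signalling chain Fcer1g, and Fcgrt, the neonatal Fc receptor. The 6 genes were chosen by symbol, all 6 were among the 16111 named genes of the deposited table, and all 6 were among the 11408 genes with enough reads to be tested. The study compared 3 wild-type (WT) and 3 Ahrr-deficient (AhRR-/-) cultures on the C57BL/6 RCC strain. Ahrr encodes the aryl hydrocarbon receptor repressor, a protein that damps the ligand-activated transcription factor AhR, and the labels do not describe the targeted allele. In both genotypes, E13.5 fetal liver cells were cultured over 5 weeks with 2% GM-CSF, a cytokine that sustains macrophages, and the non-adherent cells were sequenced. The labels number the mice 1 to 3 within each genotype, so the replicates were taken as separate animals.

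Fc gamma receptors bind the constant part of IgG antibodies and let macrophages take up antibody-coated particles. The activating receptors carry no signalling motif of their own and depend on the gamma chain encoded by Fcer1g, whose tyrosine motif is phosphorylated by Src-family kinases and then holds the kinase Syk. Fcgr2b is a single chain with an inhibitory tyrosine motif that recruits the phosphatase encoded by Inpp5d. Fcgrt does not signal in this way: it pairs with beta-2-microglobulin inside the cell and returns IgG and albumin from endosomes to the outside.

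Library totals ranged from 3556106 counts (Ahrr-deficient replicate 1) to 41668336 counts (Ahrr-deficient replicate 2). Levels are given as CPM, the counts of a gene per 1000000 counts of the library. The lowest count of any Fc receptor gene was 156, for Fcgr1 in Ahrr-deficient replicate 1 (95% Poisson interval 132 to 182, which covers counting error only). Ahrr itself was at 4.60, 4.29 and 5.32 CPM in wild-type replicates 1, 2 and 3 and at 2.25, 2.57 and 1.21 CPM in the Ahrr-deficient ones. Its log2 fold change was -1.21 (SE 0.26, adjusted p = 0.0151 in edgeR), so reads on the gene remained. The gene averaged only 48.8 counts over the 6 libraries, so its levels in the shallower libraries rest on few reads. Wild-type replicate 2 stood apart in holding 5.28% of its counts in the ribosomal RNA gene CT010467.1, against at most 0.0679% elsewhere. The macrophage markers Adgre1, Cd68, Lyz2, Mertk and Spi1 were present in every library. The markers listed for neutrophils and their precursors summed to at most 2.38 CPM in any library. No listed mast cell or basophil marker was among the named genes, which are those with at least 10 counts over the 6 libraries. The listed B cell markers summed to between 1.68 and 7.48 CPM, all of it from Ighm. Those for T and NK cells, red cells and endothelium reached at most 0.192, 0.420 and 1.12 CPM, and those for fibroblasts 9.68 CPM.

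Sequence upstream of the start sites is shown for the activating receptors and for Fcgrt, because 3 of these 4 genes fell in Ahrr-deficient cells. The stretches are the 250 bases before the annotated start (RefSeq, GRCm38.p6), 5′ to 3′ on the strand of the gene. Fcgr1 is at chr3:96293970-96294219 (minus), Fcgr3 at chr1:171059404-171059653 (minus, the first of 2 listed starts, both inside the gene range of the GENCODE annotation), Fcgr4 at chr1:171018676-171018925 (plus) and Fcgrt at chr7:45103823-45104072 (minus). Capitals mark 3 motifs searched on both strands: GCGTG, the core bound by AhR with its partner; GAGGAA, a core of the macrophage factor PU.1, read as TTCCTC on the other strand, as GCGTG is as CACGC; and TTCNNNGAA, the core bound by STAT factors.
Fcgr1: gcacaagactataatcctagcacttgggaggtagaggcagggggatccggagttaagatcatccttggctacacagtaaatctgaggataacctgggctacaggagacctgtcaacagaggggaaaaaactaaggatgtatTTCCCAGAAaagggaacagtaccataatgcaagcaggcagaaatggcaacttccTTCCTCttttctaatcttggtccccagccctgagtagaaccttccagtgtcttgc
Fcgr3: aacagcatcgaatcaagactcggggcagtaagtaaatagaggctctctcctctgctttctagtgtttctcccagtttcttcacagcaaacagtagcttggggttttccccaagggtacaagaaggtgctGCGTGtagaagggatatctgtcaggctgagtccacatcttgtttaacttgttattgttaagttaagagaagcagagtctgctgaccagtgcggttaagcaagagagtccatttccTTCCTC
Fcgr4: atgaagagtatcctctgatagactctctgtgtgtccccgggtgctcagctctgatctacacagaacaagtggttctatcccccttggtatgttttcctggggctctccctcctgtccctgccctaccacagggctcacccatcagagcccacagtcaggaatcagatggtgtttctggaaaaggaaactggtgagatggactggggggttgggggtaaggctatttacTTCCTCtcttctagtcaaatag
Fcgrt: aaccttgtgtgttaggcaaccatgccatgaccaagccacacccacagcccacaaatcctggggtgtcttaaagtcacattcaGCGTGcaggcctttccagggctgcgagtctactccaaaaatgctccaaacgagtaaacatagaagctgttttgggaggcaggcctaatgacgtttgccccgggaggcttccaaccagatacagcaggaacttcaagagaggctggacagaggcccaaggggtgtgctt

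GAGGAA was found in the windows of the 3 activating receptors, starting at -55 in Fcgr1, -6 in Fcgr3 and -22 in Fcgr4, counted back from -1 at the last base before the start. It was not in the windows of Fcgr2b, Fcer1g or Fcgrt, and 23.3% of 32851 windows of this length held it. The Fcgr2b window (chr1:170976072-170976321) lies inside the GENCODE range of its gene, as do those of Fcgr3. Sequence before the GENCODE range of these genes was not searched. GCGTG was found at -121 in Fcgr3, -168 in Fcgrt and -12 in Fcer1g, and was not in the windows of Fcgr1, Fcgr2b or Fcgr4, against 28.2% of all windows. TTCNNNGAA was found in Fcgr1 alone of the 6 genes, at -109, against 7.0% of all windows. Of the 3 genes with GCGTG, Fcgr3 and Fcgrt fell and Fcer1g did not pass the test; of the 3 with GAGGAA, Fcgr3 and Fcgr4 fell and Fcgr1 did not pass. These matches describe letters in a window and no binding was measured.

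Of the 6 genes, 3 fell in Ahrr-deficient cells at an adjusted p under 0.05 in edgeR: the activating receptors Fcgr4 and Fcgr3, and Fcgrt. The other 3, Fcgr1, Fcgr2b and Fcer1g, did not pass. Among all 11408 tested genes 19.6% passed the threshold, 9.95% by falling and 9.62% by rising. In CPM by library total, the groups did not overlap for the 3 genes that fell. This held for 12.9% of all tested genes in that direction and 36.6% in either direction. The median log2 fold change was -0.52 over the 6 genes and 0.01 over all tested genes. In bulk cultures a lower share of expressing cells and less RNA per cell cannot be told apart.

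**Figure D1:**
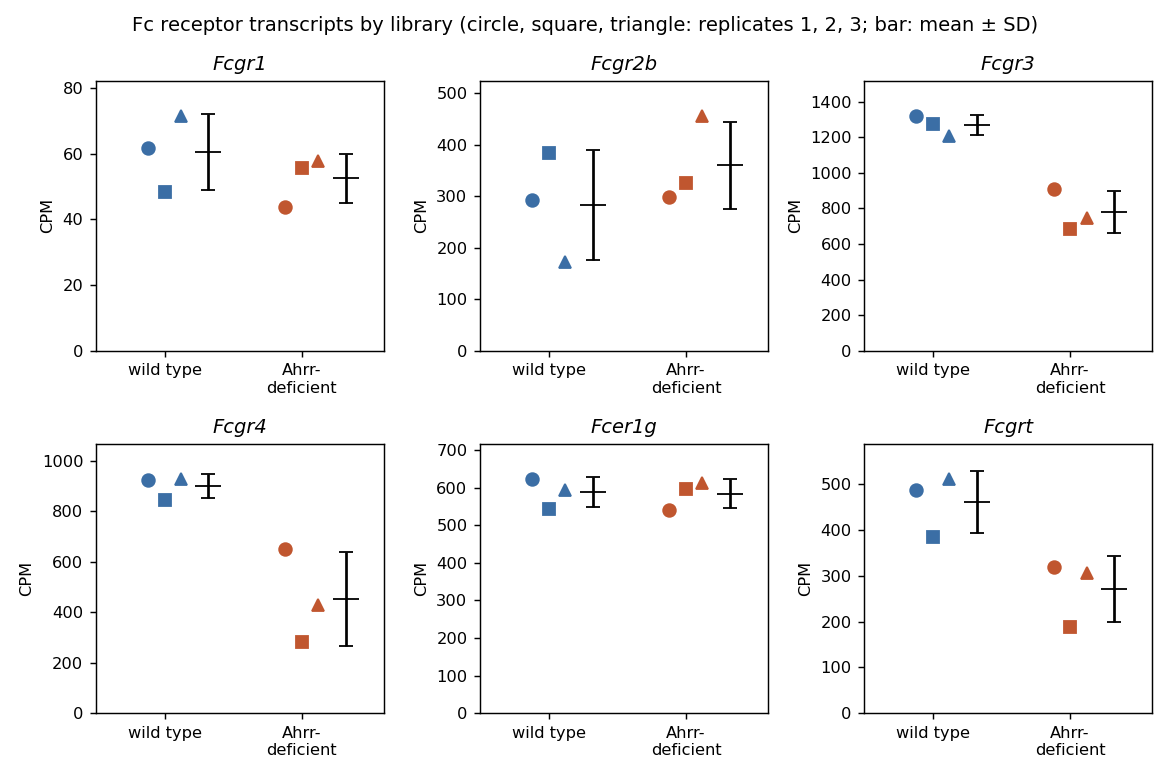
Level of each Fc receptor gene in CPM (vertical axis, from 0) in the 3 wild-type (blue) and 3 Ahrr-deficient (orange) libraries, with the mean and SD beside each group. Fcgr3, Fcgr4 and Fcgrt do not overlap between the genotypes, and Fcgr1, Fcgr2b and Fcer1g do.

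Fcgr3, a low-affinity activating receptor for IgG complexes, lies on chromosome 1 (GRCm38, 171051174 to 171064935, minus strand). It was at 1318, 1277 and 1207 CPM in wild-type replicates 1, 2 and 3 and at 910.0, 686 and 744 CPM in the Ahrr-deficient replicates. All 3 Ahrr-deficient libraries were below the lowest wild-type library. The mean went from 1268 ± 56 to 780.0 ± 116 CPM (SD, n = 3 each), and the log2 fold change was -0.78 (SE 0.14, adjusted p = 0.00816 in edgeR), that is 1.71-fold lower. Fcgr3 passed the threshold in all 14 alternative analyses, with adjusted p from 1.79e-07 (in DESeq2) to 0.0441.

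Fcgr4, the activating receptor that binds IgG2a and IgG2b in mice, lies near Fcgr3 on the same chromosome (171018920 to 171029761, plus strand). Its wild-type levels were close to each other, at 923, 844 and 928 CPM. The Ahrr-deficient levels were spread out, at 651, 283 and 427 CPM, and all 3 were below the wild-type range. The mean went from 898 ± 47 to 454 ± 185 CPM (SD, n = 3 each), a coefficient of variation of 5.22% against 40.8%. Its log2 fold change of -1.06 (SE 0.26, adjusted p = 0.0228 in edgeR) was the lowest of the 6, a 2.08-fold fall. The call was lost when any wild-type library or Ahrr-deficient replicate 3 was left out, at adjusted p of 0.0760, 0.0667 and 0.0595 without wild-type replicates 1, 2 and 3 and 0.0853 without Ahrr-deficient replicate 3. The log2 fold change in those 4 fits stayed between -1.07 and -1.02. Over all 14 alternatives the adjusted p of Fcgr4 ran from 2.66e-13, with no filter on low counts, to 0.0853.

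Fcgr1, the high-affinity receptor that binds single IgG molecules, lies on chromosome 3 (96282909 to 96293969, minus strand). It was at 61.8, 48.4 and 71.5 CPM in wild-type libraries against 43.9, 55.7 and 57.9 CPM in the Ahrr-deficient libraries, replicates 1, 2 and 3. The groups overlapped, with 1 Ahrr-deficient library below the lowest wild-type library. The log2 fold change of -0.26 (SE 0.13) did not pass (adjusted p = 0.177 in edgeR), and its 95% interval ran from -0.54 to 0.03. The log2 fold change fitted for Fcgr3 lies outside that interval, but the 95% interval of Fcgr3, from -1.10 to -0.45, overlaps it. The difference between these 2 genes was not tested.

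Fcgr2b, the inhibitory receptor, lies near Fcgr4 on chromosome 1 (170958617 to 170976547, minus strand). It was at 293, 383 and 172 CPM in wild-type libraries against 298, 326 and 455 CPM in the Ahrr-deficient libraries, replicates 1, 2 and 3. Wild-type replicate 3 was the lowest library and Ahrr-deficient replicate 3 the highest. The coefficient of variation in wild-type cells was 37.5%, the largest of the 6 genes in that genotype. The log2 fold change was 0.25 (SE 0.29, adjusted p = 0.575 in edgeR) with a 95% interval from -0.41 to 0.91, and it was -0.04 without wild-type replicate 3.

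Fcer1g, the shared gamma chain, also lies on chromosome 1 (171229572 to 171234365, minus strand). It was at 623, 544 and 595 CPM in wild-type libraries against 540.5, 597 and 613 CPM in the Ahrr-deficient libraries, replicates 1, 2 and 3. The means of 587 ± 40 and 583 ± 38 CPM (SD, n = 3 each) lay within 1 SD of each other. The log2 fold change was -0.08 (SE 0.10, adjusted p = 0.584 in edgeR), with a 95% interval from -0.31 to 0.14. That interval excludes the log2 fold changes fitted for Fcgr3 and Fcgr4 but holds that of Fcgr1. The difference between genes was not itself tested.

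Fcgrt, the neonatal Fc receptor, lies on chromosome 7 (45092990 to 45103851, minus strand). It was at 486, 384 and 511 CPM in wild-type libraries against 318, 188 and 305 CPM in the Ahrr-deficient libraries, replicates 1, 2 and 3, with no overlap. The mean went from 460.1 ± 67.1 to 270.3 ± 72.0 CPM (SD, n = 3 each), and the log2 fold change was -0.84 (SE 0.19, adjusted p = 0.0188 in edgeR), or 1.79-fold lower. The call was lost without wild-type replicate 1 (adjusted p = 0.0702) and without wild-type replicate 3 (0.0588), with log2 fold changes of -0.81 and -0.80, and over all 14 alternatives the adjusted p ran from 9.34e-10, with no filter on low counts, to 0.0702. Its partner B2m did not pass, at 1665, 1465 and 1622 CPM in wild-type libraries against 1645, 1552 and 1528 CPM in Ahrr-deficient libraries (log2 fold change -0.08, SE 0.11, adjusted p = 0.623 in edgeR).

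**Figure D2:**
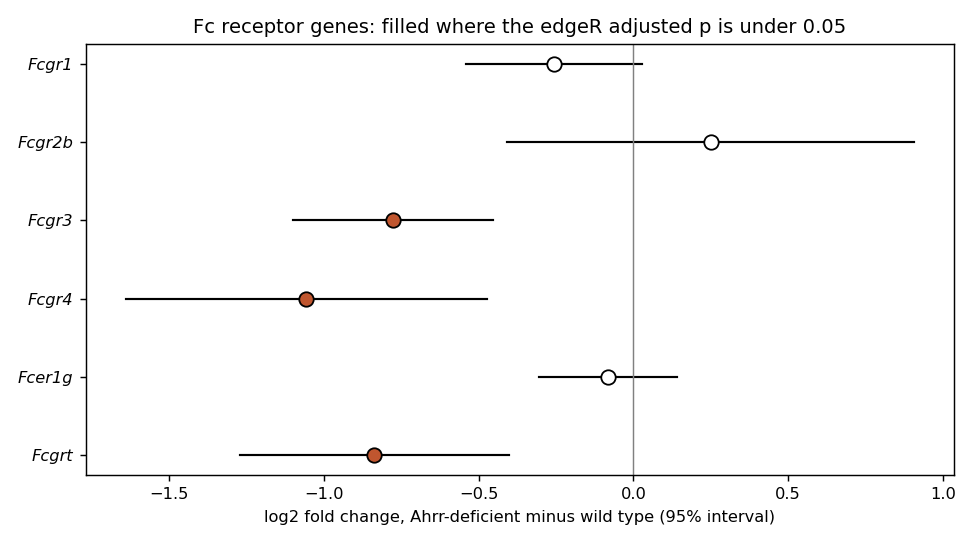
Fitted log2 fold change (horizontal axis, Ahrr-deficient minus wild type) of the 6 genes, with the 95% interval as a line. Fcgr4, Fcgrt and Fcgr3, the filled points, lie at -1.06, -0.84 and -0.78, and the intervals of the 3 open points cross 0.

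The 3 genes that fell shared an order among the Ahrr-deficient libraries. In each of them replicate 1, the shallowest library, was the least reduced and replicate 2, the deepest, the most reduced. For Fcgr4, log2 CPM after TMM scaling, relative to the mean of the gene, was 0.05 in replicate 1, -1.19 in replicate 2 and -0.58 in replicate 3. Csf1r, a macrophage marker that fell (log2 fold change -0.65, adjusted p = 0.0304 in edgeR), had the same order, at 804, 507 and 608 CPM against 868 to 1075 CPM in wild type. Adgre1, Lyz2 and Mertk were also highest in replicate 1 and lowest in replicate 2 of the Ahrr-deficient libraries, whereas Cd68, Spi1, Mrc1 and Itgax were lowest in replicate 1 and Itgam was highest in replicate 3. Thinning all libraries to the smallest total left the log2 fold changes at -0.78 for Fcgr3, -1.08 for Fcgr4 and -0.84 for Fcgrt, all past the threshold. Thinning keeps the proportions of genes within each library, and whether depth underlies this order was not tested. Without Ahrr-deficient replicate 1 the log2 fold changes were -0.92 for Fcgr3, -1.43 for Fcgr4 and -0.99 for Fcgrt.

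**Figure D3:**
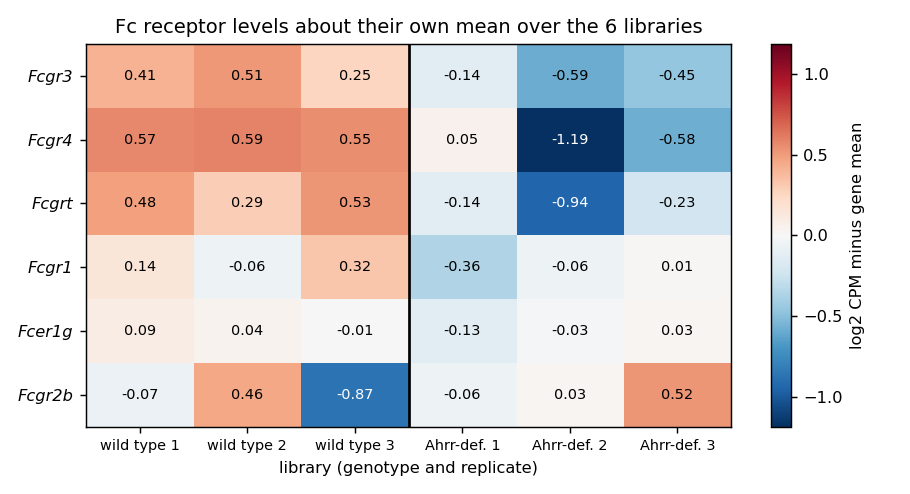
TMM-scaled log2 CPM of each gene minus its own mean over the 6 libraries (rows: genes, columns: libraries, colour and printed number: difference in log2 units). Fcgr3, Fcgr4 and Fcgrt are above their mean in the wild-type libraries and lowest in Ahrr-deficient replicate 2, Fcer1g stays within 0.13 of its mean, and Fcgr2b is lowest in wild-type replicate 3.

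Levels of different genes were compared per kilobase of exon. In wild-type cells the order was Fcgr3 (730.2 ± 32.4 CPM per kilobase, SD, n = 3), Fcgr4 (715 ± 37), Fcer1g (672 ± 46), Fcgrt (219 ± 32), Fcgr2b (48.8 ± 18.3) and Fcgr1 (23.4 ± 4.5). The ranges of the first 3 overlapped, and those of the other 3 were separate from each other and from the rest. In Ahrr-deficient cells Fcer1g stood first, at 668 ± 44 CPM per kilobase, above Fcgr3 at 449 ± 67 and Fcgr4 at 361 ± 147. In all 3 Ahrr-deficient libraries the gamma chain was above both receptors per kilobase, and in all 3 wild-type libraries it was below both. The place of Fcer1g depended on the length used. With the longest coding transcript, an alternative added after seeing the data, Fcer1g was at 859.8 ± 58.5 and Fcgr4 at 715 ± 37 CPM per kilobase in wild-type cells.

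Activating and inhibitory receptors were set against each other within each library, where depth and scaling cancel. Fcgr3 had 4.50, 3.33 and 7.02 counts for each count of Fcgr2b in wild-type replicates 1, 2 and 3, and 3.06, 2.10 and 1.64 in the Ahrr-deficient ones. Every Ahrr-deficient ratio was below every wild-type ratio. Fcgr4 had 3.15, 2.20 and 5.40 counts per count of Fcgr2b in wild type, against 2.19, 0.870 and 0.938, where the nearest libraries of the 2 genotypes were almost equal. Fcgr1 had 0.211, 0.126 and 0.416 counts per count of Fcgr2b in wild type and 0.147, 0.171 and 0.127 in Ahrr-deficient cells, with overlap. No test was made of these ratios, since the genes were chosen with earlier results known, and the spread of Fcgr2b in wild type enters all of them.

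Reads of 75 bases can be hard to place where family members are alike. Of 1733 distinct windows of 75 bases in the annotated transcripts of Fcgr3, 94 (5.42%) also occur in transcripts of Fcgr2b, so the counts of these 2 genes are uncertain, and how many reads this touches was not measured. In Fcgr2b 313 of 5768 windows (5.43%) also occur in another gene. Fcgr1, Fcgr4, Fcer1g and Fcgrt had 0 such windows in common with any other gene. Exons of Gm38204 overlap 155 bases of Fcgr2b on the opposite strand, and Gm38204 had at most 8 counts in a library.

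Fcgr2b, Fcgr4, Fcgr3 and Fcer1g lie in 1 stretch of chromosome 1, and other genes of that stretch were compared with them. Of 15 other tested genes within 150 kb of the receptors, 1 passed the threshold, against 19.6% of all tested genes. It was Ppox, a heme synthesis gene, which fell with a log2 fold change of -0.48 (adjusted p = 0.0148 in edgeR). The median over the 15 was 0.01. Cfap126, between Fcgr3 and Fcer1g, had a log2 fold change of -0.99 but did not pass (adjusted p = 0.138).

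**Figure D4:**
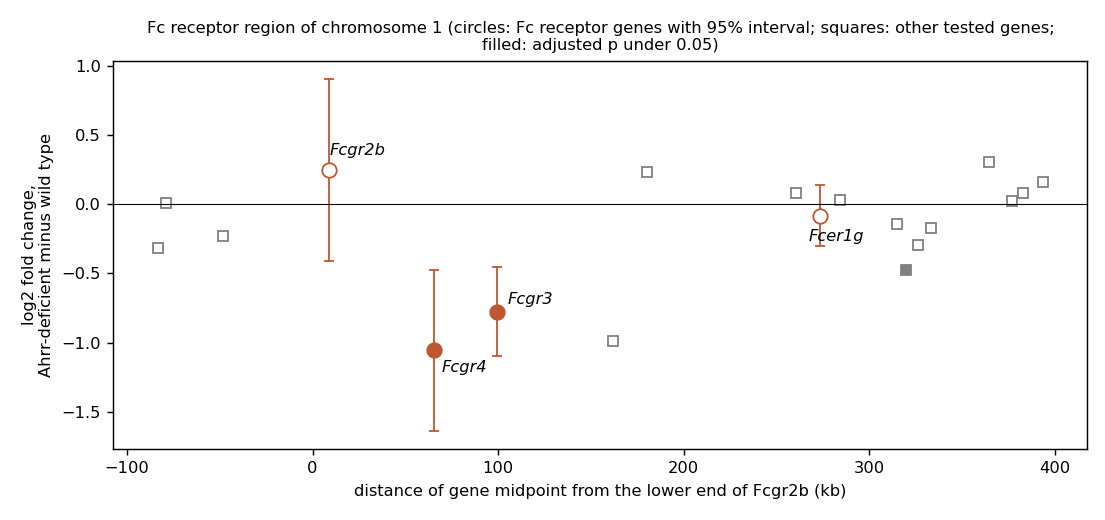
Fitted log2 fold change (vertical axis) against distance of the gene midpoint from the lower end of Fcgr2b in kb (horizontal axis), for the Fc receptor genes (circles with 95% intervals) and 15 other tested genes (squares) of the chromosome 1 region. Filled symbols passed the threshold: Fcgr4, Fcgr3 and Ppox.

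A mixed list of gamma chain partner receptors, related receptors and sister adaptors was then examined. Of the 18 listed genes 13 were tested, and 7 of them fell while 6 did not pass. The median log2 fold change was -0.45 against 0.01 over all genes. Not every gene of the list signals through the gamma chain, so these values do not describe gamma chain partners alone. Of all tested genes 9.95% fell. Clec4d, a C-type lectin receptor that signals through the gamma chain, fell from 140.1, 185 and 137 CPM to 66.1, 47.7 and 27.5 CPM (log2 fold change -1.84, SE 0.28, adjusted p = 0.00460 in edgeR). Its relative Clec4e, the receptor Mincle, fell by 0.74 on the log2 scale (adjusted p = 0.0186 in edgeR). Clec7a, the beta-glucan receptor Dectin-1, which has a tyrosine motif of its own, did not pass (log2 fold change -0.08, adjusted p = 0.767 in edgeR). Clec4n, Cd300lf and Pira2 did not pass either, with log2 fold changes of 0.18, 0.28 and 0.44. In CPM by library total their groups did not overlap, with the Ahrr-deficient libraries higher. Of all tested genes, 36.6% did not overlap in either direction and 12.9% did so with the Ahrr-deficient libraries lower. For Cd300lf the separation was small, with wild-type replicate 1 at 476 CPM and Ahrr-deficient replicate 1 at 482 CPM. Clec4b1 and Lilra5, also not past the threshold, had log2 fold changes of -0.13 and -0.54.

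Tyrobp, the adaptor DAP12, fell where Fcer1g did not pass. Its levels were 1108, 985 and 1099 CPM in wild-type libraries against 762, 811 and 883 CPM in Ahrr-deficient libraries (log2 fold change -0.45, SE 0.10, adjusted p = 0.0193 in edgeR). Hcst, the adaptor DAP10, fell by 0.67 on the log2 scale (adjusted p = 0.0454 in edgeR), with overlapping groups. Cd300c2, an activating receptor of the CD300 family, fell by 0.70 on the log2 scale (adjusted p = 0.00758 in edgeR). The other 2 were Cd300lb and Pirb, of which Pirb is an inhibitory receptor with close copies among the Pira genes, so its count is uncertain. The number of genes of this group that fell was 3 without wild-type replicate 1, wild-type replicate 3, Ahrr-deficient replicate 2 or Ahrr-deficient replicate 3, and 4 without wild-type replicate 2. Without Ahrr-deficient replicate 1, 8 fell and 1 rose.

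Of 41 listed signalling genes downstream of Fc receptors 38 were tested, of which 4 fell, 2 rose and 32 did not pass (median log2 fold change 0.00). The share past the threshold was 15.8%, against 19.6% of all tested genes. Syk, the kinase that binds the gamma chain, was at 1059.6, 1020.1 and 1117 CPM in wild-type libraries against 744, 478 and 581 CPM in the Ahrr-deficient libraries, replicates 1, 2 and 3. The groups did not overlap, and the log2 fold change was -0.90 (SE 0.17, adjusted p = 0.00818 in edgeR), with replicate 1 again the least reduced. Pik3r5, a regulatory subunit of a phosphoinositide kinase, fell by 0.85 on the log2 scale (adjusted p = 0.00595 in edgeR). Grb2 and Inppl1, an adaptor and a lipid phosphatase, fell by 0.33 and 0.28 on the log2 scale. Src rose from a low level, 1.82 to 3.37 CPM in wild type against 3.94 to 9.82 CPM (log2 fold change 1.53, SE 0.32, adjusted p = 0.0132 in edgeR), and Ptpn11, a phosphatase, rose by a log2 fold change of 0.25.

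Of the other phosphatases that inhibitory receptors recruit, Inpp5d, the partner of Fcgr2b, had a log2 fold change of 0.01 (SE 0.09, adjusted p = 0.955 in edgeR) and Ptpn6 one of 0.31 (SE 0.12, adjusted p = 0.0964), and neither passed. The Src-family kinases Lyn and Fgr had log2 fold changes of 0.06 and -0.02 and did not pass. The number of signalling genes that rose was 1 with upper-quartile scaling, in DESeq2, after thinning and without wild-type replicate 1, wild-type replicate 2 or Ahrr-deficient replicate 3, 5 without Ahrr-deficient replicate 1 and 0 without Ahrr-deficient replicate 2. The number that fell was 2 after thinning or without any 1 of wild-type replicates 1 and 2 and Ahrr-deficient replicates 2 and 3, and 9 without Ahrr-deficient replicate 1.

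All 32 listed genes of the phagocytic cup and the NADPH oxidase, the machinery that Fc receptors drive during uptake, were tested. Of these 5 rose, 1 fell and 26 did not pass, with a median log2 fold change of 0.10. The share past the threshold was 18.8%, near the 19.6% of all tested genes. The genes that rose, with their log2 fold changes, were Pla2g4a, which encodes a phospholipase, by 0.57, Actr2, an actin-branching subunit, by 0.50, the oxidase subunit Ncf1 by 0.47, the myosin Myo1e by 0.44 and the adaptor Crk by 0.37. The oxidase subunit Ncf4 fell by 0.54 on the log2 scale (adjusted p = 0.0195 in edgeR), and Cybb, the catalytic subunit, did not pass (log2 fold change -0.13, adjusted p = 0.661). Ncf4 lost its call without wild-type replicate 1, wild-type replicate 2, Ahrr-deficient replicate 2 or Ahrr-deficient replicate 3, and 5 genes fell without Ahrr-deficient replicate 1. The number that rose in edgeR was 0 without wild-type replicate 1 and 3 without wild-type replicate 2 or wild-type replicate 3.

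**Figure D5:**
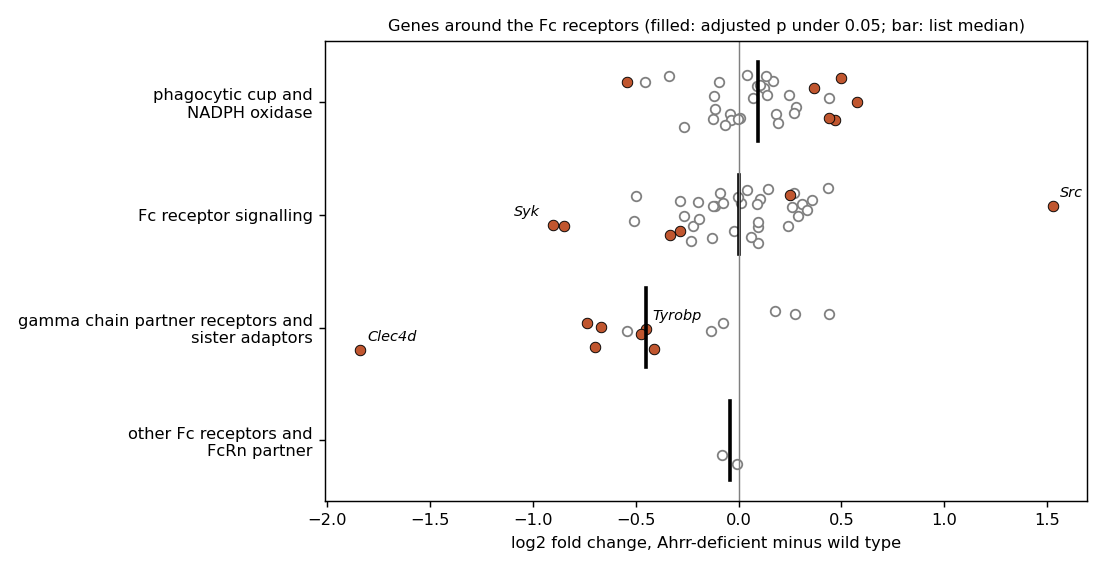
Fitted log2 fold change (horizontal axis) of each tested gene in 4 groups around the Fc receptors, filled where the adjusted p in edgeR was under 0.05, with a bar at the group median. The mixed group of gamma chain partner receptors and sister adaptors lies mostly to the left (median -0.45), while the medians of the signalling and phagocytic genes are 0.00 and 0.10.

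Few other Fc receptor genes were listed in the table. Of 14 listed, 2 were tested, B2m and the intracellular antibody receptor Trim21 (log2 fold change -0.01, adjusted p = 0.981 in edgeR), and neither passed. In this list 1 gene fell without Ahrr-deficient replicate 1, and 1 fell with no filter on low counts. Genes left out of the main fit for low counts can enter these fits, and which gene fell is not reported here. Fcrl1 and Fcrla, relatives expressed in B cells, had at most 15 and 17 counts in any library and were not tested. Fcrlb, a further relative that is not in the list and lies near Fcgr2b, was tested and did not pass (log2 fold change -0.23, adjusted p = 0.705 in edgeR). The other 10 of the list, among them the IgE receptor genes Fcer1a and Ms4a2, were not among the named genes.

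Patterns were compared among 10033 other genes with a mean of at least 50 counts, by centred, TMM-scaled log2 CPM over the 6 libraries. Genes with the smallest root mean square difference were taken as most similar. For Fcgr3 these were Ctsb (0.04), Sirpb1b (0.04) and Sgms2 (0.05), with log2 fold changes of -0.74, -0.85 and -0.74. Ctsb encodes the lysosomal protease cathepsin B, and Sirpb1b belongs to a family of near-identical genes. For Fcgr4 they were Rassf2 (0.10), Sdc1 (0.10) and the inhibitory receptor gene Cd300a (0.11), with log2 fold changes of -1.15, -1.22 and -1.10. For Fcgrt they were Tbc1d8 (0.08), Siglec1, a macrophage receptor for sialic acid (0.09), and Ckb (0.09). Within the family, the nearest pair was Fcer1g and Fcgr1, with a difference of 0.17. Fcgr1 varied by 0.21 about its own mean and Fcer1g by 0.07. Among the 3 genes that fell, Fcgr3 and Fcgrt differed by 0.23, Fcgr4 and Fcgrt by 0.23 and Fcgr3 and Fcgr4 by 0.30.

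The genes near Fcgr1 included Mark4 (0.05) and Cotl1 (0.06), and Fcer1g, which varied by only 0.07 about its mean, was nearest to Tet3 (0.01), Sf3b2 (0.02) and Ints1 (0.02). Fcgr2b had no close match: its nearest genes, 4930430F08Rik, Lsm11 and Vcl, were 0.16, 0.16 and 0.17 away. The libraries share genotype and depth across all genes, so these distances carry no test.

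Markers of the culture moved with genotype as well. Of 9 macrophage markers, Mrc1 and Itgax rose, with log2 fold changes of 0.59 (adjusted p = 0.00766 in edgeR) and 1.70 (adjusted p = 6.96e-04), and Csf1r fell, while 6 did not pass. The summed level of the 9 was 22186 to 27892 CPM in wild type and 17310 to 24458 CPM in Ahrr-deficient libraries, most of it from Lyz2. Of 5 dendritic cell markers 3 were listed in the table, with a summed level of 57.6 to 62.1 CPM in wild type and 72.0 to 93.2 CPM in Ahrr-deficient libraries, most of it from Clec9a, which rose (log2 fold change 0.49), while Flt3 and Ccr7 were not among the named genes. Zbtb46, the other dendritic cell marker tested, did not pass (log2 fold change -0.32, adjusted p = 0.228 in edgeR). Of 5 hepatocyte markers 2 were in the table, with a summed level of 158 to 186 CPM in wild type and 89.4 to 119.8 CPM in Ahrr-deficient libraries, nearly all from Trf, which fell (log2 fold change -0.75), while Alb, Ttr and Apoa1 were not among the named genes. The part of these differences in the Fc receptor results was not tested.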

How the data were processed

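Polyadenylated RNA of 6 cultures was sequenced as single reads of 75 bases from 100 ng of RNA, per the labels' protocols. The submitters' processing notes name the build mm10, fastp 0.20.0, STAR 2.7.10b, SAMtools 1.16.1 and DESeq2 1.40.2, with no roles. The annotation, counting program and strand setting are not given in the sources used here. The authors deposited raw counts for 53465 features without identifiers. They also deposited a normalized signal for 16111 named genes, of which 100% of values were whole multiples of 1 read per library (within 0.1 reads). The reads recovered were the same set of rows as the raw counts with a total of at least 10, so names were joined to counts. The remaining features held 0.0232% to 0.0511% of the counts of a library and stayed in its total.

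Identifiers were matched to GENCODE release M21 on GRCm38, the build also called mm10, by stable identifier (16094 of 16111). Differences were tested two-sided by quasi-likelihood in edgeR 4.0.16 (R 4.3.3), using TMM scaling, filterByExpr and a model of genotype alone, with p-values adjusted by the Benjamini-Hochberg method over 11408 genes, threshold 0.05. The procedure was tested on simulated data. Standard errors come from the fold change and the F statistic. CPM values divide by the library total, and levels per kilobase also by the union of exons. Centred log2 CPM values and the distances between genes used TMM-scaled totals instead, with a small count added before the logarithm. Replicate pairs differed beyond sampling noise (chi-square per degree of freedom of at least 5.79), so each library counted once.

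Alternatives were RLE and upper-quartile scaling, no filter, a filter at 50 mean counts, DESeq2 1.42.0, limma-voom (limma 3.58.1), the replicate number as a block, thinning to the smallest total, and each library left out. The 6 genes and the lists of related genes and markers were chosen with earlier results of these data known. Of each list, at most the 4 genes with the largest change in each direction among called genes averaging at least 50 counts were to be named, besides Syk, Tyrobp, Inpp5d, Ptpn6, B2m, Ahrr and the 3 most similar genes of each receptor. Any other gene was named after its values were seen, and some genes are not reported here.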

Additional observations from a re-analysis of the deposited data

How the results depend on the processing

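Fcgr3 kept its call in all 14 alternatives, Fcgr4 in 10 and Fcgrt in 12, and each kept its sign. Fcgr1, Fcgr2b and Fcer1g passed in none of the 14. With each library left out in turn, the log2 fold change ranged from -0.92 to -0.69 for Fcgr3, from -1.43 to -0.81 for Fcgr4, from -0.99 to -0.63 for Fcgrt, from -0.35 to -0.17 for Fcgr1, from -0.13 to -0.05 for Fcer1g and from -0.04 to 0.60 for Fcgr2b. The fits without 1 library have fewer samples. The lower bound of Fcgr2b, without wild-type replicate 3, had the opposite sign (-0.037). The number of genes past the threshold, 2232 among all tested genes, was 694 to 3857 with 1 library left out, from the fit without wild-type replicate 1 to that without Ahrr-deficient replicate 1. It was 1197 after thinning, which leaves fewer counts per library. Replicate numbers occur in both genotypes but mark different mice. Deviations of same-numbered libraries correlated at -0.169, 0.071 and 0.129 for numbers 1, 2 and 3 across 11408 genes. Whether same-numbered libraries shared a culture or sequencing batch was not tested. The replicate block gave 1390 genes past the threshold and changed the call of none of the 6 Fc receptor genes. With it, 4 genes of the gamma chain partner and sister adaptor list and 2 signalling genes fell, and 3 phagocytic genes rose. The mean log2 ratio to Fcgr2b (Ahrr-deficient minus wild type) was -1.11 for Fcgr3 and ranged from -1.36 to -0.82 with 1 library left out, and was -1.46 for Fcgr4, with a range from -1.89 to -1.12. Levels per kilobase with the longest coding transcript were chosen after seeing the data.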
